A study of Homo sapiens with 18 samples.

Results

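The integrin and laminin genes were followed through neuronal differentiation of SH-SY5Y, an established human neuroblastoma line. Members were all gene symbols of the deposited expression table that name an integrin alpha subunit (ITGA followed by a digit or letter), an integrin beta subunit (ITGB1 to ITGB8) or a laminin chain (LAMA, LAMB or LAMC followed by 1 to 5). The rule used no measured value and found 38 of 26372 symbols: 18 alpha subunits, 8 beta subunits and 12 laminin chains. Of these, 20 had a mean of at least 1 FPKM over all libraries and were tested, 17 had lower values, and ITGAX was listed at 0 in every library. FPKM scales sequenced fragments by transcript length and by the mapped fragments of the library, so levels can be compared between genes.

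The 18 RNA-seq libraries formed 6 groups of 3. The cells came from ATCC and all of them were infected with a lentivirus carrying ZNHIT3, a gene of box C/D snoRNP assembly: the WT form, the C14R variant, or a deletion (∆). The labels of the deletion libraries give its range as 251 to 254 in replicate 1, 251 to 255 in replicate 2 and 251 to 256 in replicate 3, and those libraries were kept as a group. Day 0 and day 18 refer to the time in serum-free neurobasal/B27 medium with BDNF, KCl, dibutyryl cyclic AMP and all-trans retinoic acid, which the cells received from 48 hours after infection. No group without virus was analysed here. The sample titles call the deletion libraries Depleted, and the labels name no change to the endogenous ZNHIT3 gene. The labels do not say that the 3 libraries of a group came from separate cultures, so p-values measure the spread between these libraries, which may be technical.

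Integrins are membrane receptors made of an alpha and a beta subunit, and the pair decides which matrix protein the cell can bind. Laminins are cross-shaped trimers of an alpha, a beta and a gamma chain that form the scaffold of basement membranes and support neurite growth. The alpha subunits 3, 6 and 7 pair with ITGB1 to bind laminin, 1 and 2 with ITGB1 to bind collagen, and 5 and V bind ligands with the RGD sequence such as fibronectin and vitronectin.

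The libraries were compared first for depth and identity. The value of a single fragment put day 0 libraries at 58.9% to 84.3% and day 18 libraries at 82.0% to 100% of the deepest library, so low values were read more coarsely at day 0. All FPKM of a library summed to between 553539 (C14R day 18 replicate 1) and 2222220 (WT day 0 replicate 1). Within WT day 0 the sums were 2222220, 1003980 and 987586. Median-of-ratios size factors lay between 0.989 and 1.02. ZNHIT3 lay between 292 and 310 FPKM in the deletion libraries at day 0, between 419 and 432 in C14R and between 531 and 542 in WT, and at day 18 between 294 and 313, 600 and 756, and 1103 and 1193. Of 10 markers of sympathetic neuroblasts, the lineage of this line, 9 at day 0 and 10 at day 18 reached 1 FPKM in some library, and their summed level was 1363 to 1460 FPKM at day 0 and 1929 to 2105 at day 18. STMN2 was the highest of these markers at both days (mean 500 and 757). TH, an enzyme of catecholamine synthesis and not the only one in that list, was at 0 to 1.02 FPKM. Leukocyte markers summed to 4.72 to 6.55 and 5.37 to 8.04 FPKM, with 2 of 6 reaching 1 FPKM at each day, CORO1A the highest and PTPRC at most at 0.166. No endothelial marker of 5 reached 1 FPKM. Schwann cell markers summed to 3.21 to 4.96 FPKM at day 0 and 8.79 to 10.7 at day 18, with S100B the highest. Genes used as fibroblast markers summed to 246 to 276 FPKM at day 0 and 32.4 to 49.3 at day 18, with 5 of 6 reaching 1 FPKM, COL1A2 below it and COL3A1 the highest (mean 196 and 23.6). Whether a change in the makeup of the cultures had a part in the results below was not tested. In bulk RNA, fewer cells of a type and less RNA per cell cannot be told apart.

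Day 18 against day 0 moved nearly all tested members. In WT, 6 of 20 rose and 13 fell (limma, adjusted p under 0.05, Benjamini-Hochberg over 13785 genes), while 72.2% of all tested genes passed, 38.2% upwards and 34% downwards. In C14R, 7 rose and 13 fell, against 72.9% of all genes (37.9% upwards and 35% downwards). In the deletion line 6 rose and 13 fell, against 73% (38.6% and 34.4%). A call by itself was thus common among all genes. The share of all genes without overlap between days or between lines is not given here, so a lack of overlap below is description only. The median log2 change of the 20 members was -0.42 in WT, -0.75 in C14R and -0.61 in the deletion line, and that of all genes was 0.03, 0.02 and 0.03. Without the filter on FPKM the median of the 37 members with values was -0.06, -0.01 and -0.04. The members added there have means under 1 FPKM, where a pseudocount of 1 pulls log2 changes towards 0. The lower median is thus shown for the tested members only, and the unfiltered median cannot decide whether it holds for the whole family. With a log2 change of at least 1 as a further condition, 2 members rose and 8 fell in each line, and the shares of all genes were 7.27% and 6.79% in WT, 7.27% and 6.64% in C14R, and 7.66% and 6.74% in the deletion line. These counts include ITGA7, which rose, and ITGA5, which fell. Both had a mean under 1 FPKM at the day on which they were low, and passed the filter through the other day. All of these changes are differences of log2(FPKM + 1), a scale that compresses the change of a low gene.

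The 19 members that passed in all 3 lines had the same direction in each. ITGA7, LAMB2, ITGB8, LAMA5, LAMC1 and ITGB1 rose. ITGA2, ITGA3, ITGA4, ITGA5, ITGA6, ITGA9, ITGAE, ITGAV, ITGB3, ITGB5, LAMA1, LAMA4 and LAMB1 fell. The tested members ITGA5, ITGA7 and ITGAE, had a mean under 1 FPKM at either day and so passed the filter through the day on which they were high. Among the other 17, 16 passed in WT, 17 in C14R and 16 in the deletion line.

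**Figure D1:**
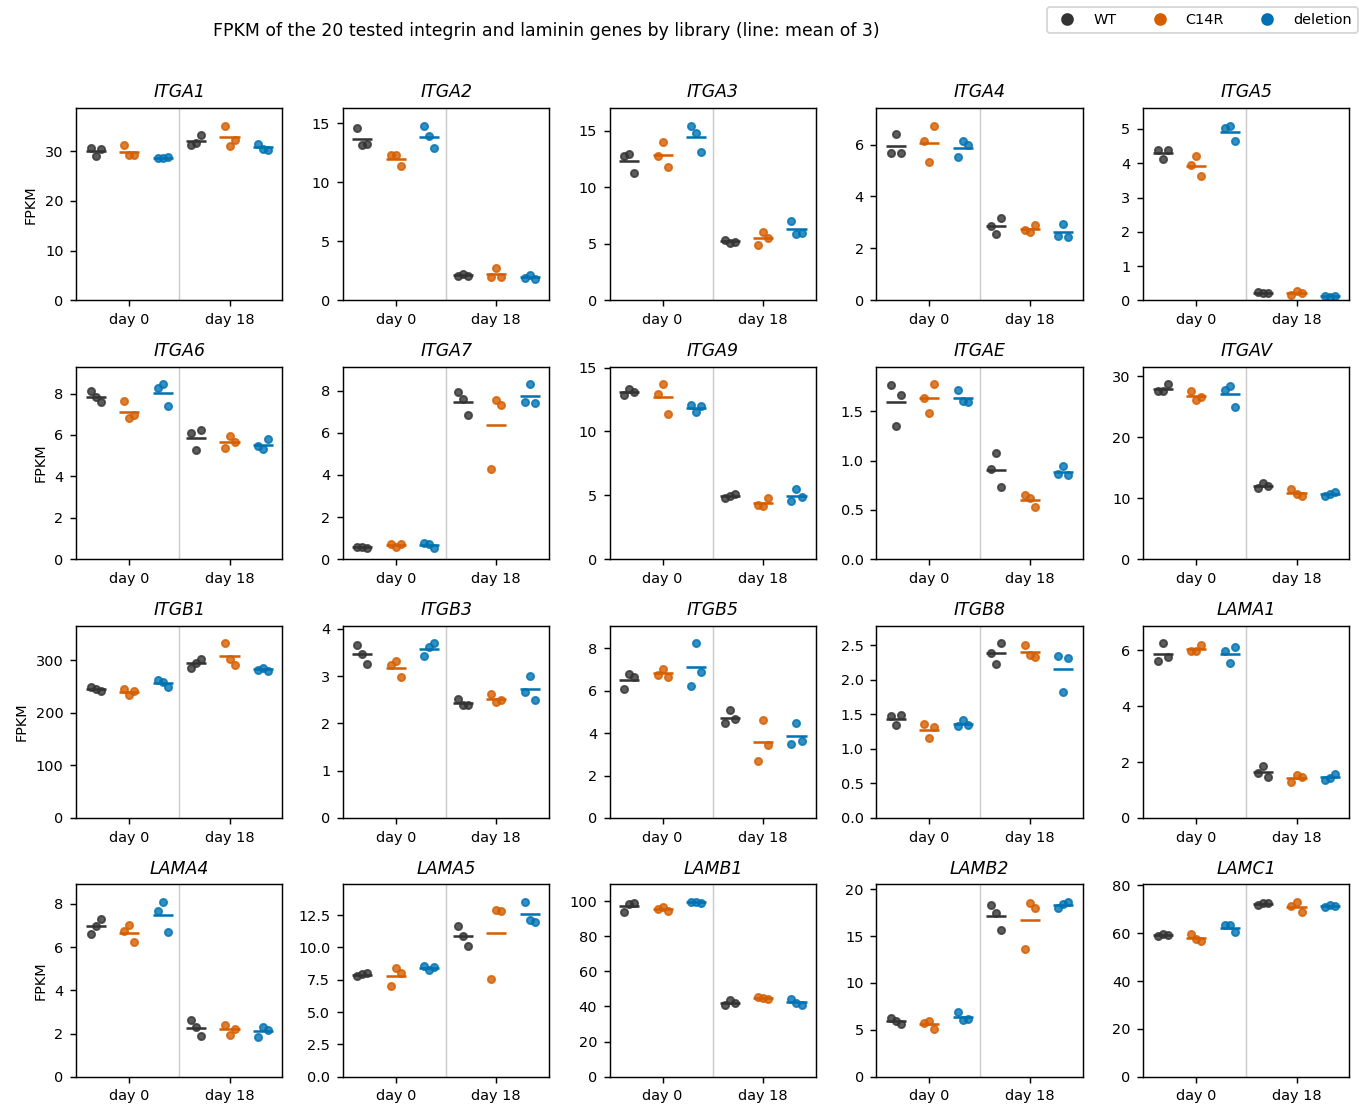
FPKM of the 20 tested members in each of the 18 libraries (y axis from 0, linear, with its own range in each panel), with a point per library, a line for the mean of 3, colors for the construct and the 2 days side by side. ITGA7 and LAMB2 lie higher at day 18 in every library, and ITGA2, ITGA5 and LAMB1 lie higher at day 0 in every library.

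Among the laminin-binding alpha subunits, ITGA7 rose while ITGA3 and ITGA6 fell. ITGA7, the laminin receptor best known from skeletal muscle and also made by regenerating neurons, was at 0.592, 0.561 and 0.544 FPKM in the WT libraries at day 0 and at 7.96, 7.62 and 6.83 at day 18. In C14R it was at 0.727, 0.583 and 0.730 FPKM and then at 4.29, 7.58 and 7.31, and in the deletion line at 0.790, 0.729 and 0.547 and then at 7.49, 8.30 and 7.42. No day 0 library came near any day 18 library, and C14R replicate 1 was the lowest at day 18. The ratio of mean FPKM was 13.2 in WT, 9.40 in C14R and 11.2 in the deletion line, and the log2 change in WT was 2.43 ± 0.13 (SE, limma, adjusted p = 3.2e-11).

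ITGA3, whose dimer with ITGB1 binds laminins with an alpha 5 chain among others, was at 12.7, 12.9 and 11.2 FPKM in WT at day 0 and at 5.38, 5.11 and 5.14 at day 18. Over the 9 libraries of each day it ran from 11.2 to 15.4 FPKM (median 12.9) and then from 4.93 to 7.04 (median 5.49), without overlap. Its log2 change was -1.10 in WT, -1.10 in C14R and -1.08 in the deletion line. ITGA6, a laminin receptor widely used to mark stem and progenitor cells, fell less. It was at 8.10, 7.85 and 7.59 FPKM in WT and then at 6.07, 5.27 and 6.25, with a change of -0.37 (SE 0.07) and an adjusted p of 0.00012 by limma. ITGB4, which pairs with ITGA6 in epithelial hemidesmosomes, was below the level for testing. It ran from 0.191 to 0.399 FPKM at day 0 and from 0.473 to 0.815 at day 18, without overlap.

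The collagen receptors differed from each other. ITGA1 was the highest alpha subunit in all 6 groups by mean, with the smallest day change among the tested members in each line on the deposited scale: 30.7, 29.1 and 30.4 FPKM in WT at day 0 and 31.3, 31.6 and 33.3 at day 18. Days overlapped over all lines, from 28.6 to 31.3 FPKM (median 29.1) and from 30.3 to 35.1 (median 31.5). Its log2 change was 0.09 in WT (limma, adjusted p = 0.086), 0.13 in C14R (adjusted p = 0.018) and 0.10 in the deletion line (adjusted p = 0.065). Replicate 1 of C14R at day 18 was the highest of all libraries, and without it the C14R change was 0.08 (adjusted p = 0.093). The call was also lost without C14R replicate 2 or 3 of day 0 (adjusted p = 0.061 and 0.069), with median-of-ratios scaling (0.054) and with quantile normalization (0.079). Its exons share 1273 bases with 4 other genes, of which AC022133.1 and PELO lie on the same strand. PELO had WT means of 12.5 and 10.9 FPKM. The level of ITGA1 and its share of the alpha sum are thus uncertain to the extent that reads were divided. Array weights put ITGA1 past the threshold in WT (limma, adjusted p = 0.040) and the deletion line (adjusted p = 0.022). Fits of only the libraries compared did so in the deletion line (adjusted p = 0.025) and lost the C14R call (adjusted p = 0.10). Rescaling after leaving out small RNA genes also put ITGA1 past the threshold in WT and the deletion line, with log2 changes of 0.29 and 0.31. That rescaling moved the median of all genes to 0.21 and 0.23, and relative to it ITGA1 changed by 0.08 and 0.09.

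ITGA2, the other collagen receptor, had one of the steepest falls. It was at 14.6, 13.1 and 13.3 FPKM in WT at day 0 and at 2.05, 2.28 and 2.08 at day 18. In C14R it went from 12.3, 12.3 and 11.3 FPKM to 1.95, 2.76 and 2.02, and in the deletion line from 14.8, 13.9 and 12.9 to 1.94, 2.11 and 1.81. Every day 0 library was above every day 18 library. Its mean was 6.39 times lower at day 18 in WT, 5.34 times in C14R and 7.09 times in the deletion line, and the WT log2 change was -2.22 ± 0.08 (SE, limma, adjusted p = 2.2e-13). ITGA11, a collagen receptor of mesenchymal cells, was under the mean of 1 FPKM but ran from 0.791 to 1.27 FPKM at day 0 and from 0 to 0.0595 at day 18. In a fit without the filter its log2 change was -0.97 in WT, -0.90 in C14R and -1.07 in the deletion line. ITGA10 was at most 0.21 FPKM in any library.

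Both tested RGD-binding alpha subunits fell. ITGA5, the fibronectin receptor subunit, was at 4.39, 4.11 and 4.38 FPKM in WT at day 0 and at 0.248, 0.221 and 0.213 at day 18. In C14R it went from 3.95, 4.21 and 3.63 FPKM to 0.166, 0.286 and 0.220, and in the deletion line from 5.02, 5.10 and 4.63 to 0.119, 0.107 and 0.144. By mean, the deletion line was the highest at day 0 and the lowest at day 18. The mean was 18.9 times lower at day 18 in WT, 17.5 times in C14R and 39.8 times in the deletion line, where the log2 changes were -2.11, -2.01 and -2.40. These ratios divide by values between 0.107 and 0.286 FPKM, and the number of fragments behind those is unknown.

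ITGAV, the alpha subunit of the vitronectin receptors and second to ITGA1 among the alpha subunits, was at 27.6, 27.6 and 28.7 FPKM in WT at day 0 and at 11.7, 12.5 and 12.0 at day 18. All 9 libraries of day 0 (24.9 to 28.7 FPKM, median 27.6) were above all 9 of day 18 (10.3 to 12.5, median 11.0). The log2 change was -1.15 in WT, -1.22 in C14R and -1.26 in the deletion line. The beta subunits that pair with ITGAV divided. ITGB3 and ITGB5, of the classical vitronectin receptors, fell by 0.38 and 0.39 on the log2 scale in WT, and ITGB8, whose dimer activates latent TGF-beta, rose by 0.47. ITGB3 overlapped between days over all lines (2.98 to 3.70 FPKM, then 2.39 to 3.01), and ITGB8 did not (1.15 to 1.49 FPKM, then 1.82 to 2.53). With small RNA genes left out and rescaling, ITGB5 no longer passed in WT (-0.21, limma, adjusted p = 0.13), nor ITGB3 in C14R (-0.11, adjusted p = 0.18) or the deletion line (-0.13, adjusted p = 0.098), nor ITGA6 in C14R (-0.13, adjusted p = 0.11). That rescaling moved the median of all genes to 0.21 in WT, 0.18 in C14R and 0.23 in the deletion line. Relative to it ITGB5 changed by -0.42 in WT and ITGA6 by -0.31 in C14R. ITGB3 changed by -0.29 in C14R and -0.36 in the deletion line on that measure.

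ITGA4 and ITGA9, the related subunits that bind VCAM1, fibronectin splice forms and tenascin, fell together. ITGA9 was at 12.9, 13.3 and 13.1 FPKM in WT at day 0 and at 4.77, 4.94 and 5.08 at day 18, a change of -1.25 (SE 0.07) with a limma adjusted p of 3.7e-11. ITGA4 was at 5.68, 6.42 and 5.68 FPKM and then at 2.85, 2.55 and 3.18, a change of -0.84 (SE 0.09) with a limma adjusted p of 1.2e-07. Neither had overlapping days over the 3 lines. Of 7 subunits known from leukocytes only ITGAE was tested, at 1.35 to 1.77 FPKM over day 0 and 0.53 to 1.07 over day 18. Its exons share bases with those of HASPIN on the opposite strand, which lies inside ITGAE (chr17:3714628-3801243), and the use of strand is not given in the sources used here, so reads of the pair could not be told apart. The gene listed under HASPIN's older symbol GSG2 had WT means of 3.81 and 1.29 FPKM. For the same reason values of ITGB3, with 2266 exonic bases shared with AC068234.1 on the same strand, and of LAMA1, with 1641 shared with AP002409.1 on the opposite strand, are uncertain to the extent that reads were divided.

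ITGB1, the common partner of most alpha subunits, was by far the highest member. It was at 249, 246 and 242 FPKM in WT at day 0 and at 285, 295 and 302 at day 18. In C14R it went from 245, 234 and 241 FPKM to 332, 301 and 290, and in the deletion line from 261, 257 and 248 to 282, 285 and 279. All day 18 libraries were above all day 0 libraries, by a small step: the log2 change was 0.26 ± 0.04 in WT (SE, limma, adjusted p = 4.2e-05), 0.36 in C14R and 0.14 in the deletion line. ITGB1 made up 95.4% ± 0.16 (SD, n = 3) of the summed beta subunit FPKM in WT at day 0 and 96.6% ± 0.083 (SD, n = 3) at day 18.

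The alpha and the beta sums differed in direction. The summed alpha subunits were at 119 ± 1.68 FPKM (SD, n = 3) in WT at day 0 and 74.3 ± 0.924 at day 18. Divided by ITGB1 this gave 0.484 ± 0.0047 and 0.253 ± 0.0049 in WT, 0.479 and 0.235 in C14R, and 0.464 and 0.256 in the deletion line. In each line the 3 ratios of day 0 were all above the 3 of day 18 (exact permutation test, two-sided, p = 0.1 in each line, the smallest that 20 relabelings allow). Within the alpha sum, ITGA1 went from 25.3% ± 0.53 (SD, n = 3) to 43.1% ± 0.91 in WT, and ITGA7 from 0.477% to 10.1%. ITGAV went from 23.6% to 16.2% and ITGA2 from 11.5% to 2.87%. The share of ITGA1 was higher at day 18 at a nearly equal level, as the sum it is divided by was lower.

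**Figure D2:**
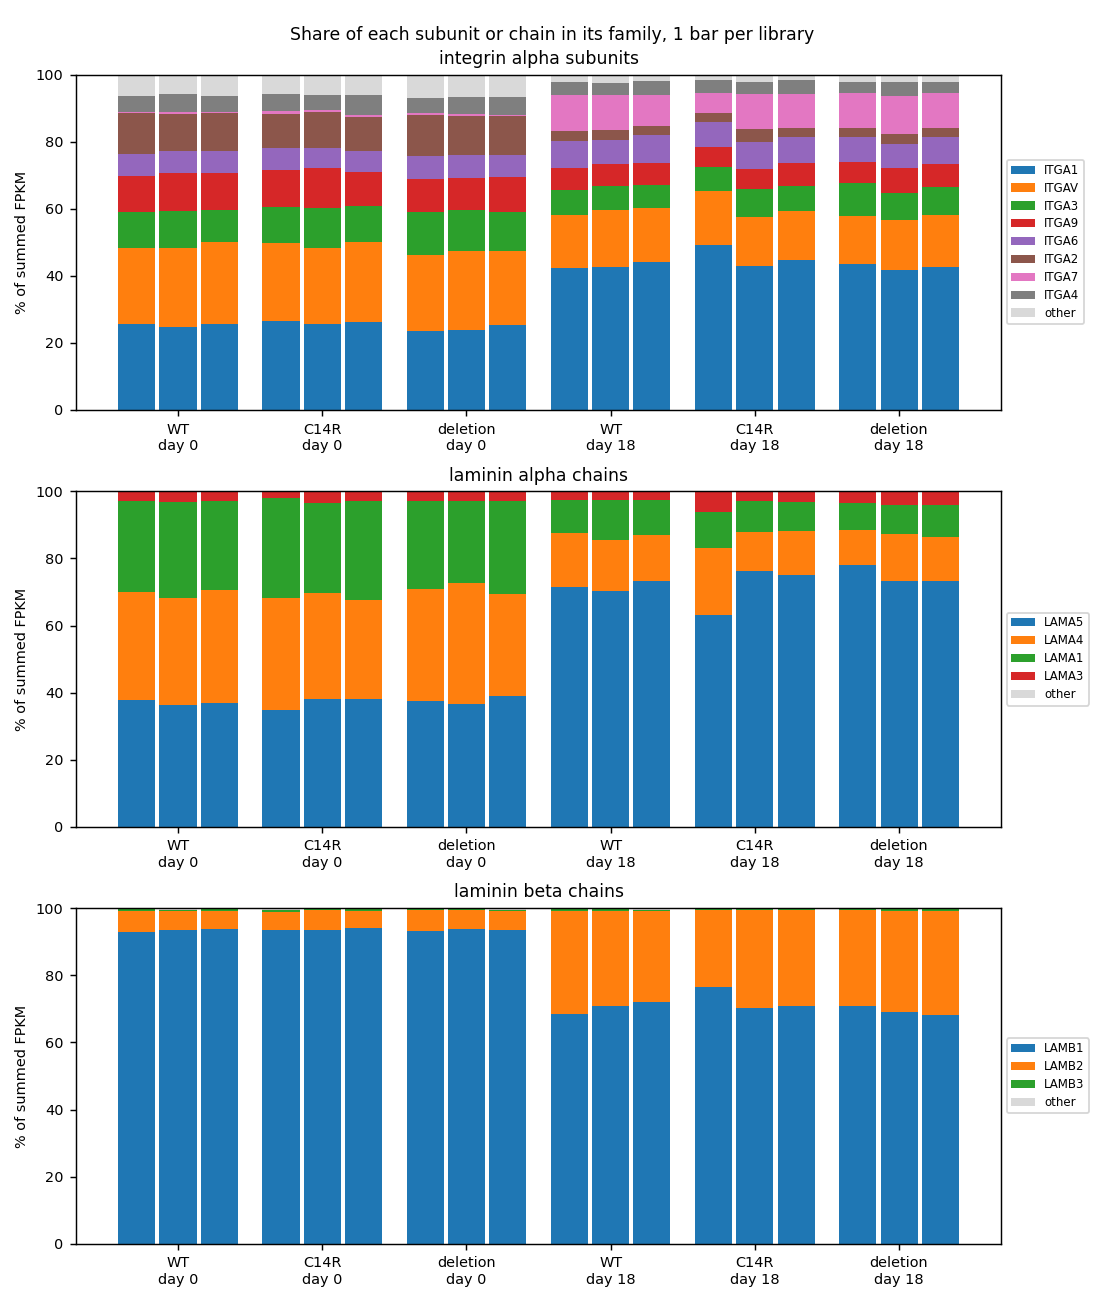
Share of each subunit or chain in the summed FPKM of its family (y axis, percent), with 1 stacked bar per library in 6 groups. ITGA1 and ITGA7 take larger shares of the alpha subunits at day 18, and LAMA5 and LAMB2 take larger shares of their laminin families.

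The laminin chains changed by type: 1 of 3 tested alpha chains rose and 2 fell, 1 of 2 beta chains rose and 1 fell, and the gamma chain LAMC1 rose. These counts were the same in all 3 lines, where the LAMA5 call in C14R was the least firm. LAMB1, the beta chain of laminin-111 and other early laminins, was at 93.9, 98.4 and 99.1 FPKM in WT at day 0 and at 40.6, 43.5 and 41.8 at day 18. In C14R it went from 95.4, 96.4 and 94.1 FPKM to 45.2, 44.7 and 44.2, and in the deletion line from 99.5, 99.4 and 99.1 to 44.4, 42.1 and 40.9. The libraries of a group lay close together and the days far apart, and the WT log2 change was -1.19 ± 0.04 (SE, limma, adjusted p = 1e-14).

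LAMB2, the beta chain of synaptic and kidney basement membranes, went the other way. It was at 6.28, 5.93 and 5.61 FPKM in WT at day 0 and at 18.3, 17.5 and 15.6 at day 18. In C14R it went from 5.75, 5.99 and 5.11 FPKM to 13.6, 18.5 and 18.0, and in the deletion line from 6.92, 6.03 and 6.20 to 18.0, 18.4 and 18.6. No days overlapped, with C14R replicate 1 the lowest library of day 18. The mean was 2.88 times higher in WT, 2.97 times in C14R and 2.87 times in the deletion line, and the WT log2 change was 1.38 ± 0.09 (SE, limma, adjusted p = 4.5e-10). LAMB1 remained the higher of the pair at day 18. LAMB2 divided by LAMB1 was 0.0613 ± 0.0052 (SD, n = 3) at day 0 and 0.408 ± 0.038 at day 18 in WT, 0.0589 and 0.374 in C14R, and 0.0643 and 0.433 in the deletion line (exact permutation test, two-sided, p = 0.1 in each line, the smallest possible).

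The alpha chains kept the same order of means at both days (LAMA5, LAMA4, LAMA1), and the gap from LAMA5 to the other chains widened. LAMA1, the alpha chain of laminin-111, was at 5.62, 6.26 and 5.77 FPKM in WT at day 0 and at 1.59, 1.86 and 1.46 at day 18, a change of -1.38 (SE 0.07) with a limma adjusted p of 1.8e-11. LAMA4, a chain of vessel and nerve basement membranes, was at 6.62, 6.99 and 7.30 FPKM and then at 2.62, 2.32 and 1.87, a change of -1.29 (SE 0.09) with a limma adjusted p of 1.2e-09. Both fell in every line, with LAMA1 at 5.54 to 6.26 FPKM over day 0 and 1.29 to 1.86 over day 18.

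LAMA5, the most widespread alpha chain of mature basement membranes, was at 7.76, 7.98 and 7.99 FPKM in WT at day 0 and at 11.7, 10.9 and 10.1 at day 18. In C14R it went from 6.99, 8.43 and 7.99 FPKM to 7.60, 12.9 and 12.8, and in the deletion line from 8.56, 8.24 and 8.52 to 13.5, 12.2 and 12.0. The days overlapped through C14R replicate 1 of day 18 alone. The log2 change was 0.41 in WT, 0.43 in C14R and 0.52 in the deletion line, and 0.66 in C14R without that library. When only the 6 C14R libraries were fitted, the C14R change of LAMA5 did not pass (0.43, limma, adjusted p = 0.062). At day 0 the 3 alpha chains were at similar levels, LAMA5 with 37.0% ± 0.68 (SD, n = 3), LAMA4 with 32.6% and LAMA1 with 27.5% of the laminin alpha sum in WT. At day 18 LAMA5 held 71.8% ± 1.5 (SD, n = 3), LAMA4 14.9% and LAMA1 10.8%.

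LAMC1, the gamma chain of most laminins, was at 58.7, 59.9 and 59.3 FPKM in WT at day 0 and at 71.8, 72.7 and 72.7 at day 18, a change of 0.28 (SE 0.03) with a limma adjusted p of 5.4e-07. In WT the alpha chains summed to 21.4 FPKM before and 15.2 after differentiation, and the beta chains to 104 and 59.6, so that LAMC1 was below the beta sum at day 0 and above it at day 18.

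**Figure D3:**
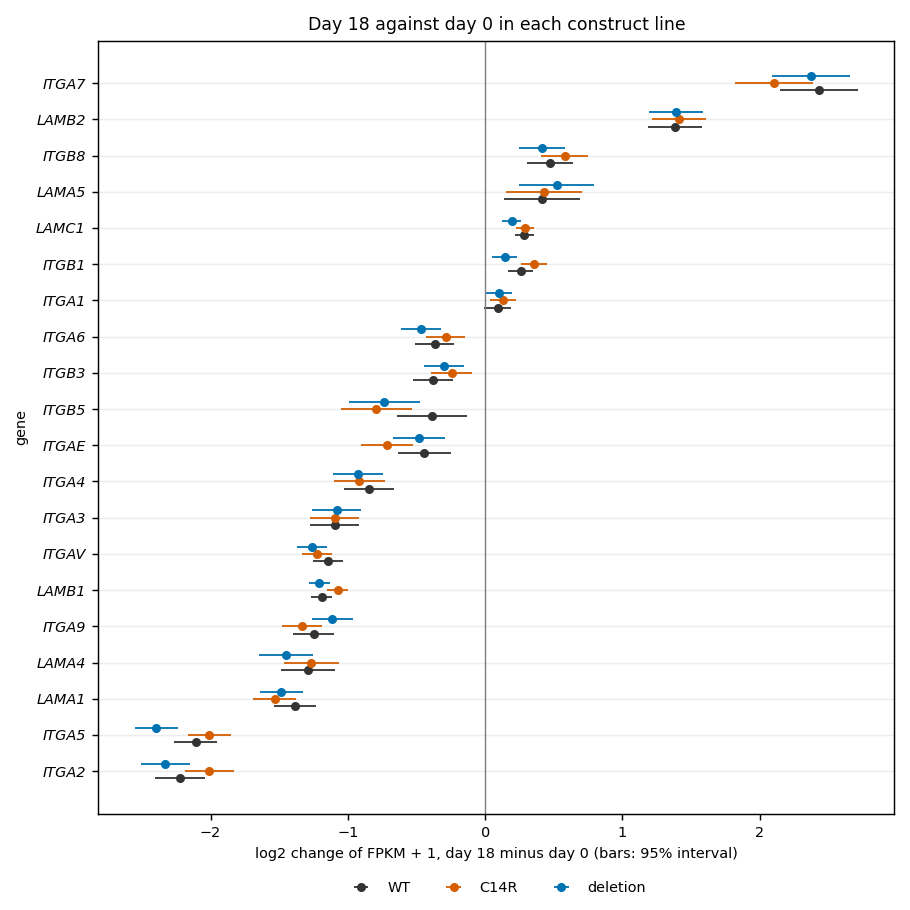
Log2 change of FPKM + 1 from day 0 to day 18 (x axis) for each tested member (y axis), 1 point per construct line with its 95% interval from limma. The 6 members at the top rose and those from ITGA6 down fell in all 3 lines, with ITGA1 near 0.

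The upstream sequences of 4 members are printed because they are the 2 beta chains that moved in opposite directions, the alpha chain that rose, and a collagen receptor that fell. They are the RefSeq bases (GRCh38.p14) from 250 before the start, without those that GENCODE 29 places inside the gene, written 5′ to 3′ on the gene's strand, with matches to the searched motifs in capitals, all of which here are GC boxes (GGGCGG or its complement CCGCCC). LAMB2 is at chr3:49133119-49133300 on the minus strand, LAMA5 at chr20:62367313-62367562 on the minus strand, ITGA2 at chr5:52989102-52989325 on the plus strand and LAMB1 at chr7:108003256-108003411 on the minus strand. The bases left out hold further GC boxes: in LAMB2 from 68 to 63 before the RefSeq start, its only match, in LAMB1 from 88 to 83 and from 84 to 79, and in ITGA2 from 9 to 4.
LAMB2: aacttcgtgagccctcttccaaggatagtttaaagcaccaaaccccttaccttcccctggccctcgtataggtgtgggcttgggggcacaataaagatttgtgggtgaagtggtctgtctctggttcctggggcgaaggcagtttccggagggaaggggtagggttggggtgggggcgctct
LAMB1: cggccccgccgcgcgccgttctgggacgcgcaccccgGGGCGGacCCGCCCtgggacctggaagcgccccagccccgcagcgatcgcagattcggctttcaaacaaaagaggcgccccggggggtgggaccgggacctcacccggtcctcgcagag
LAMA5: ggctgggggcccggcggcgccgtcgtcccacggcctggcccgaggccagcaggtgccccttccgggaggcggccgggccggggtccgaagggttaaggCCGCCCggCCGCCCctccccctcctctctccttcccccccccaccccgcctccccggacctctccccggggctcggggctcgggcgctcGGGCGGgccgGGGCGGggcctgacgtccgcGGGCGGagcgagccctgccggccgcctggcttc
ITGA2: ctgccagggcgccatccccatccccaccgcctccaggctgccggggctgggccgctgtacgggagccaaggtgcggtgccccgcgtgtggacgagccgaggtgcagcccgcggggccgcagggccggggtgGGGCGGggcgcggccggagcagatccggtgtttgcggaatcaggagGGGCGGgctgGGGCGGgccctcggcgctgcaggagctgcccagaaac

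RefSeq upstream sequences were matched for 26 of 38 members and 15 of the 20 tested. Among the tested members, entries were missing for ITGA3, ITGA7, ITGA9, ITGB3 and LAMA1. Over 250 bases and both strands, the GC box GGGCGG was in 9 of the 15 and in 42.3% of all 27305 upstream sequences. Those 9 hold genes of both directions: ITGB1, ITGB8, LAMA5, LAMB2 and LAMC1 rose, and ITGA2, ITGA5, ITGB5 and LAMB1 fell. The TEAD motif CATTCC was in ITGA5 and ITGB1 and in 11.9% of all sequences, and TATAAA was in ITGA6 and in 11.1%. The letters of AP-1 (TGANTCA, 6.6% of all), of the cyclic AMP response element (TGACGTCA, 1.77%), of the retinoid half-site (AGGTCA, 12.1%) and of 2 such half-sites in a row spaced by 5 bases (0.00366%, a motif that also holds the half-site) were in none of the 15. The median GC content was 70.4% in the 15 and 58.0% in all sequences. A match is a description of letters and no binding was measured.

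Genes that act with integrins and laminins were taken from 8 lists with 69 genes, of which 60 were tested. In WT 19 rose and 34 fell, in C14R 14 and 35, and in the deletion line 15 and 35. Of all tested genes 38.2% rose and 34% fell in WT, 37.9% and 35% in C14R, and 38.6% and 34.4% in the deletion line, and the counts of the lists below are to be read against these shares. The median log2 change was -0.41, -0.41 and -0.51, beside the medians near 0 for all genes. All 3 tested integrin activators fell in each line: FERMT2, a kindlin, by 1.23 on the log2 scale in WT, and the talins TLN2 and TLN1 by 0.55 and 0.49. Of 5 tested genes of the ILK complex, which ties integrins to actin, 4 fell, among them RSU1 (-0.61), PARVB (-0.59) and PARVA (-0.54).

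Of 9 tested actin linkers, 8 fell and TNS3 rose in WT. FLNA, ACTN1 and VCL, which bind actin at adhesions, fell by 2.34, 1.62 and 1.61 on the log2 scale, and the tensin TNS3 went from 10.0 ± 0.12 to 89.5 ± 2.7 FPKM (SD, n = 3), the largest rise of that list (3.04 on the log2 scale). Kinases and adaptors of adhesions were mixed, with 6 of 13 higher and 4 lower: PTK2B (0.61), FYN (0.57) and LPXN (0.55) rose, and PXN (-1.04), NEDD9 (-0.98) and TGFB1I1 (-0.63) fell. Of 6 membrane partners, SLC3A2 (0.63) and CD47 (0.57) rose, and CD151 (-0.41) and CD9 (-0.34) fell. CAV1, the caveolin that binds cholesterol in membrane pits, was at 17.1 to 18.6 FPKM in WT at day 0 and was listed at 0 in all 3 WT libraries at day 18.

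Other integrin ligands divided, with 5 of 12 higher and 5 lower in WT. FN1, the ligand of the ITGA5 dimer, went from 97.8 ± 3.9 to 7.19 ± 0.26 FPKM (SD, n = 3) and so changed by -3.59 on the log2 scale. TNC, a ligand of the ITGA9 dimer, fell by 3.46 and THBS1 by 3.11 on the log2 scale. THBS1 went from a WT mean of 14.2 to 0.767 FPKM, so its WT mean reached 1 FPKM at day 0 only. The same holds for CAV1. Tenascin-R (TNR, 2.52), the neural adhesion molecule L1CAM (1.97) and EDIL3 (1.56) rose. Basement membrane partners had 3 of 7 higher and 4 lower: NTN4 (0.57), AGRN (0.32) and NID2 (0.24) rose, and FRAS1 (-1.45), the perlecan gene HSPG2 (-0.997) and FREM1 (-0.78) fell. Among other laminin receptors, SDC3 (0.72) and the dystroglycan gene DAG1 (0.32) rose, and the syndecans SDC2 (-2.88), SDC1 (-1.60) and SDC4 (-0.51) fell. All 5 tested fibroblast markers fell as well in each line, and their part in these changes was not tested.

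**Figure D4:**
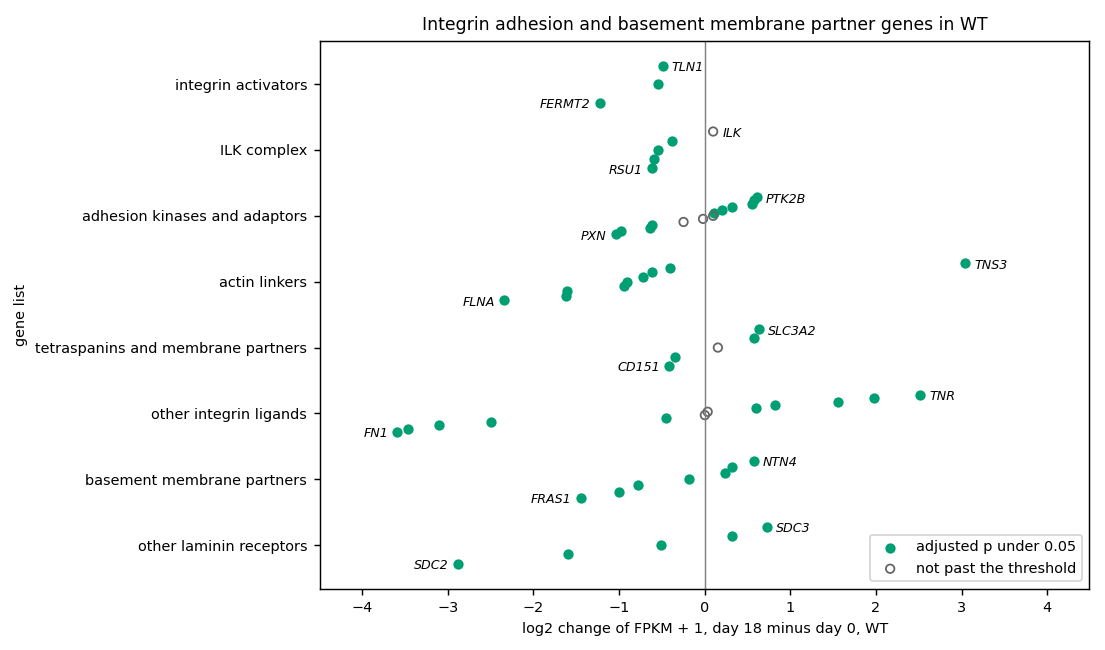
Log2 change of FPKM + 1 from day 0 to day 18 in WT (x axis) for the tested partner genes in 8 lists (y axis), filled where the adjusted p was under 0.05, with CAV1 left off because its day 18 libraries are listed at 0. Actin linkers other than TNS3 lie below 0, and ligands reach from FN1 at -3.59 to TNR at 2.52.

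The constructs were compared within each day, to ask whether the ZNHIT3 variants altered these genes. C14R and the deletion were set against the same WT libraries, so their comparisons are not independent. No member passed in C14R against WT at day 0 (0% of all tested genes) or day 18 (0.0363%), in the deletion line against WT at day 0 (0.029%) or day 18 (0.0725%), or in C14R against the deletion line at day 0 (0.058%) or day 18 (0.029%). At an unadjusted p under 0.05 by limma the members numbered 0, 4, 3, 2, 4 and 2 in that order, and the shares of all genes were 2.81%, 11.1%, 6.22%, 11.4%, 9.84% and 11.2%. Log2 changes against WT ran from -0.17 to 0.10 in C14R at day 0, -0.34 to 0.09 in C14R at day 18, -0.13 to 0.22 in the deletion line at day 0 and -0.24 to 0.23 at day 18. A p above the threshold does not show that the lines have the same level, and the intervals in the plot of variants against WT give the sizes these libraries allow. None of the 60 partner genes passed in any of these comparisons.

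ITGB5 had the largest difference of C14R from WT at day 18. It was at 4.47, 5.09 and 4.65 FPKM in WT, at 2.70, 4.61 and 3.44 in C14R and at 3.51, 4.47 and 3.65 in the deletion line. C14R overlapped WT through its replicate 2. The log2 change was -0.34 with a 95% interval from -0.60 to -0.09 (limma, adjusted p = 0.29), and without C14R replicate 2 it was -0.50 (limma, adjusted p = 0.043). At day 0 the lines overlapped, with ITGB5 at 6.07 to 6.77 FPKM in WT and 6.66 to 7.03 in C14R. ITGAE at day 18 was at 0.530 to 0.653 FPKM in C14R and 0.735 to 1.07 in WT, and its log2 change of -0.25 did not pass (limma, adjusted p = 0.30).

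ITGA3 had a higher mean in the deletion line than in WT at both days. Its libraries were at 15.4, 14.8 and 13.1 against 12.7, 12.9 and 11.2 FPKM at day 0, and at 7.04, 5.88 and 5.96 against 5.38, 5.11 and 5.14 at day 18. Neither log2 change, 0.22 at day 0 and 0.23 at day 18, passed (limma, adjusted p = 0.77 and 0.32).

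ITGAV had the smallest adjusted p of the deletion line against WT at day 18. It was at 11.7, 12.5 and 12.0 FPKM in WT, at 11.5, 10.7 and 10.4 in C14R and at 10.3, 10.7 and 11.0 in the deletion line. The log2 change was -0.16 in the deletion line and -0.14 in C14R, and neither passed (limma, adjusted p = 0.25 and 0.32).

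The day effect was then compared between lines. No member passed for C14R (0% of all genes) or for the deletion line (0.0145%), and 3 and 1 members had an unadjusted p under 0.05 by limma, against 5.73% and 7.36% of all genes. The 1 member in the deletion line was ITGA5, whose libraries are given above. Its day change there was lower than that in WT by 0.29 on the log2 scale, with a 95% interval from -0.51 to -0.06 (limma, adjusted p = 0.56). For ITGB5 the day change was lower in C14R than in WT, by -0.40 with an interval from -0.77 to -0.04 (limma, adjusted p = 0.85).

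**Figure D5:**
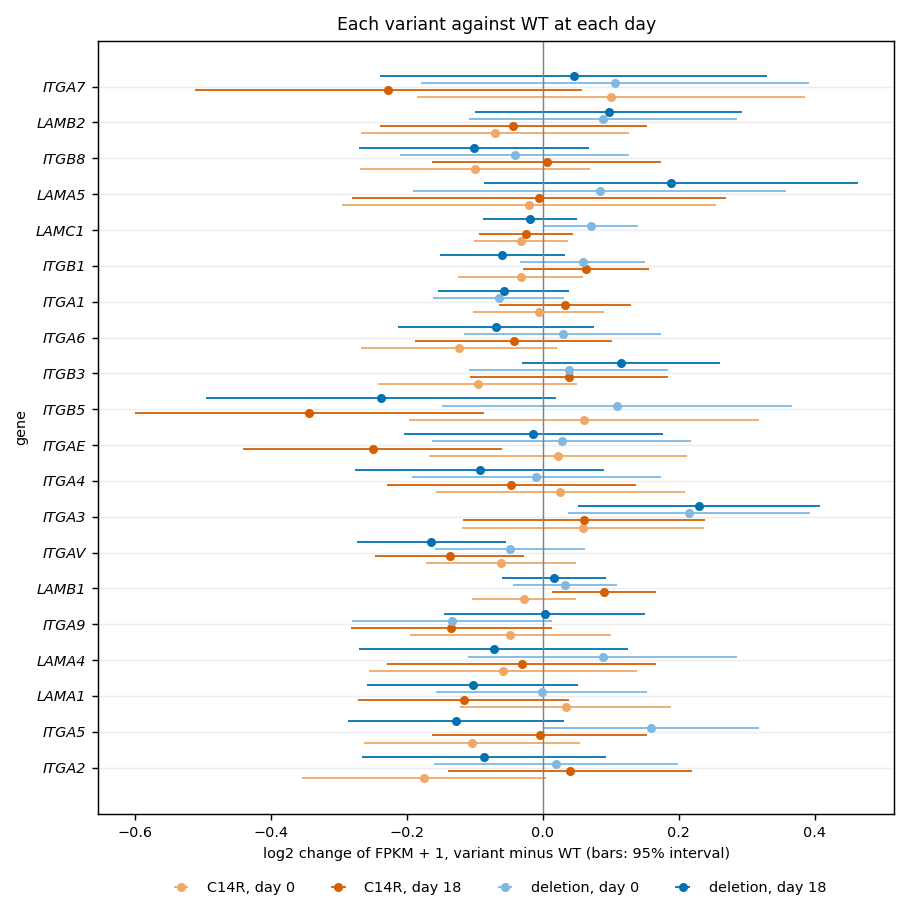
Log2 change of FPKM + 1 of C14R and the deletion line against WT (x axis) for each tested member (y axis), 1 point per comparison and day with its 95% interval from limma. All points lie between -0.34 and 0.23 and none passed the adjusted threshold.

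The 17 members with values but a mean under 1 FPKM reached at most 1.27 FPKM in any library (ITGA11 at day 0). Their calls in a fit without the filter are less certain, since a pseudocount of 1 is larger than their values, except for some of ITGA11 at day 0. In that fit over 21412 genes 3 rose (ITGA2B, ITGB2 and ITGB4) and 5 fell (ITGA11, LAMA3, LAMB3, LAMB4 and LAMC3) in WT, where 30.2% of all genes rose and 24% fell. In C14R 1 rose and 3 fell (29.1% and 24.7% of all genes), and in the deletion line 2 rose and 3 fell (30.2% and 24.4%). ITGB4 rose and ITGA11 and LAMB4 fell in all 3 lines, with ITGB4 at log2 changes of 0.29, 0.37 and 0.34 and LAMB4 at -0.20, -0.29 and -0.22.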

How the data were processed

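Per the labels' protocols, total RNA was depleted of ribosomal RNA with Ribo-Zero before library preparation with a NEBNext Ultra kit. The submitters' processing notes name TopHat2, STAR, Cufflinks 2.2.1 and build hg38. The authors deposited FPKM, 1 column per library and 1 row per gene symbol, and 0 columns lacked a sample. The annotation and the use of strand are not given in the sources used here. FPKM keep no counts, so depth is relative and no counting intervals are given.

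FPKM were used as deposited on the log2(FPKM + 1) scale. Genes with a mean of at least 1 FPKM were fitted with limma 3.58.1 (R 4.3.3), with 6 group means over all 18 libraries and a variance trend, and adjusted by Benjamini-Hochberg over 13785 genes (threshold 0.05). The code was tested on simulated data. Gene positions are from GENCODE 29 (GRCh38), and all 38 members matched. Ratios and shares were computed per library.

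Members and lists were chosen with earlier results of these data known. Library values are given for members with a mean of at least 5 FPKM in a group or a called log2 change of at least 1. Partner genes named are the 3 largest rises and falls of each list in WT. The values of 1 member are not reported here.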

Additional observations from a re-analysis of the deposited data

How the results depend on the processing

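No tested member changed direction between days under any alternative. The members passing for day 18 against day 0 (19 in WT, 20 in C14R, 19 in the deletion line) numbered 10, 10 and 10 when a log2 change of at least 1 was required, and 11, 12 and 11 at a mean of at least 5 FPKM, where only 12 were tested. Without the filter on FPKM, 27, 24 and 24 of 37 members passed, a smaller part than in the fit of 20. Other pseudocounts, median-of-ratios, quantile or small-RNA rescaling, no trend, array weights and fits of only the libraries compared kept each count within 1.5 times. Leaving out each replicate in turn gave 19 to 20 in each line, and 0 to 1 for C14R against WT at day 18, where the 1 call was ITGB5 without C14R replicate 2. Leaving out small RNA genes with rescaling moved the median of all genes to 0.21, 0.18 and 0.23, and that of the members to -0.28, -0.63 and -0.46.

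With the replicate number as a block the counts stayed at 19, 20 and 19, and at 0 in all comparisons between constructs. The numbers did not pair the libraries: deviations of same-numbered libraries correlated between -0.363 and 0.168, with 6 of 45 pairs over 0.1. Replicate 1 of C14R at day 18 had the lowest ITGA7, LAMA5, LAMB2 and ITGB5 of that day. Leaving it out of the fit for comparisons that do not use it, an alternative chosen after seeing the data, gave 20 in WT, 20 in the deletion line and 0 between constructs. FPKM hold no counts, so low members such as ITGA5 at day 18 have unknown counting error.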
